A study of Mus musculus with 8 samples.

Results

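Lipofibroblasts are lipid-laden interstitial fibroblasts of the alveolar wall, and matrix fibroblasts are their neighbours in the same mesenchyme. The 10 genes described here are used as markers of these cells in the mouse lung: Plin2, Fabp4, Pparg, Lpl, Tcf21, Limch1, Npnt, Slc7a10, Inmt and Macf1. Several are also made by other cells, so their values in whole lung are not those of fibroblasts alone. The 10 genes were found on the array by their platform gene symbol, which gave 22 of 62976 array features, and each gene was represented by its brightest feature over all arrays. All 10 genes passed the filter on dim features and are among the 17234 genes tested.

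The arrays measured lung RNA of newborn mice on a C57Bl/6J background, 4 labelled Fgf10+/- and 4 labelled wild-type. Pups of both genotypes breathed 85% oxygen in a chamber between postnatal days 0 and 3, and no arrays of pups in room air were analysed here. Fgf10 is a growth factor secreted by the lung mesenchyme, and the question the series names is the effect of its knock-down under oxygen. The design text calls the samples of a group independent but names no litter or dam, so p-values here cover the variation among these pups' samples and no more. The sample titles call the heterozygous group TG, which the labels do not explain.

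Values are deposited log2 intensities, so a difference of 1 is 2-fold, and differences are given as labelled Fgf10+/- minus wild-type. Across all array features, with or without a gene symbol, arrays of 1 group correlated at 0.971 to 0.980 and arrays of different groups at 0.969 to 0.982 (Pearson's r, given as a description). Fgf10 itself averaged 8.04 ± 0.20 in arrays labelled Fgf10+/-, against 7.81 ± 0.28 for wild-type (SD, n = 4 each), and its groups overlapped. Its log2 difference was 0.23 (SE 0.16, limma adjusted p = 0.653), and all 10 Fgf10 features had a higher mean with the Fgf10+/- label, so the arrays show no lower level of the targeted transcript. Probe sequences were not used, so these 10 features may be repeated spots and not separate readings. The sources used here do not say where the Fgf10 features lie relative to the mutated part of the gene. The genotype is therefore taken from the labels. Sftpc, a surfactant gene that marks alveolar type 2 cells, was at the top of the scale, 15.99 in both groups.

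In the lung, lipofibroblasts store neutral lipid and pass it to alveolar type 2 cells, which use it to make surfactant. The nuclear receptor PPAR-gamma maintains the lipid-storing state, and in mice FGF10 signalling has been linked to the formation of lipofibroblasts. Plin2 coats the lipid droplet, Fabp4 carries fatty acids in the cytosol, Lpl releases fatty acids from circulating triglyceride and Pparg encodes the receptor. Tcf21 is a mesenchymal transcription factor present in the lipofibroblast lineage, and the other genes are used as markers of matrix fibroblasts.

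RefSeq's promoter table (GRCm38.p6) held at least 1 start for 8 of the 10 genes, not including Fabp4 and Lpl. The 250 bases before the start are printed for Plin2, the droplet coat gene, for Slc7a10, which had the largest difference, and for Inmt, a matrix fibroblast marker. Capitals mark the nuclear receptor half-site AGGTCA, the E-box CAGCTG and the GC box GGGCGG, each on either strand, and no 2 matches overlapped.
Plin2 (chr4:86670060-86670309, minus strand): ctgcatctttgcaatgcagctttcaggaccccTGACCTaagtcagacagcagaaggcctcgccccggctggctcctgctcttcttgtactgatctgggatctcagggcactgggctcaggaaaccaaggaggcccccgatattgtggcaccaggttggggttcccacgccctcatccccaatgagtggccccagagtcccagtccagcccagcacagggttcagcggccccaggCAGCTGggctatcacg
Slc7a10 (chr7:35186135-35186384, plus strand): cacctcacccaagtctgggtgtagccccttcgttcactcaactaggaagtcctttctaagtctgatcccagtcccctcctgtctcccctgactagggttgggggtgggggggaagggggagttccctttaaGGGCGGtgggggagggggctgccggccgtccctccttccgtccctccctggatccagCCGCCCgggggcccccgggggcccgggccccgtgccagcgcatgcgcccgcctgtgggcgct
Inmt (chr6:55174991-55175240, minus strand): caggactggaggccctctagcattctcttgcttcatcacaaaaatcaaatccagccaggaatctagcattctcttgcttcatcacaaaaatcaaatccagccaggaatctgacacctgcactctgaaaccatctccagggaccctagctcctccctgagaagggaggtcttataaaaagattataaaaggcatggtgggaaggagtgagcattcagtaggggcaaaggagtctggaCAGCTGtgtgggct

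The Plin2 window held 1 half-site and 1 E-box, that of Slc7a10 2 GC boxes and that of Inmt 1 E-box. Among the 13 starts of these 8 genes, 6 held the half-site, 2 the E-box and 5 the GC box. Counted by gene, 4 held the half-site, 2 the E-box and 4 the GC box. Pparg and Limch1 have 3 starts each and Npnt 2, so the counts of starts include some genes more than once. Of all 32851 promoters in the table, 14.0% held the half-site, 13.0% the E-box and 32.7% the GC box in the same window. These matches describe letters only.

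None of the 10 genes passed limma's test at an adjusted p below 0.05, where 0.795% of all tested genes did (0.226% higher and 0.569% lower). At an unadjusted p below 0.05 there was 1, Slc7a10, which is 10% of the list against 11.2% of all tested genes (5.39% higher and 5.79% lower). No gene had groups that lay fully apart, as 6.64% of all tested genes had (3.13% higher and 3.51% lower). The median difference was -0.13, with 4 genes positive and 6 negative, beside a median of 0.01 over all tested genes, of which 48.7% were negative. The median size of the difference, regardless of sign, was 0.19 for these genes and 0.16 for all tested genes.

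**Figure D1:**
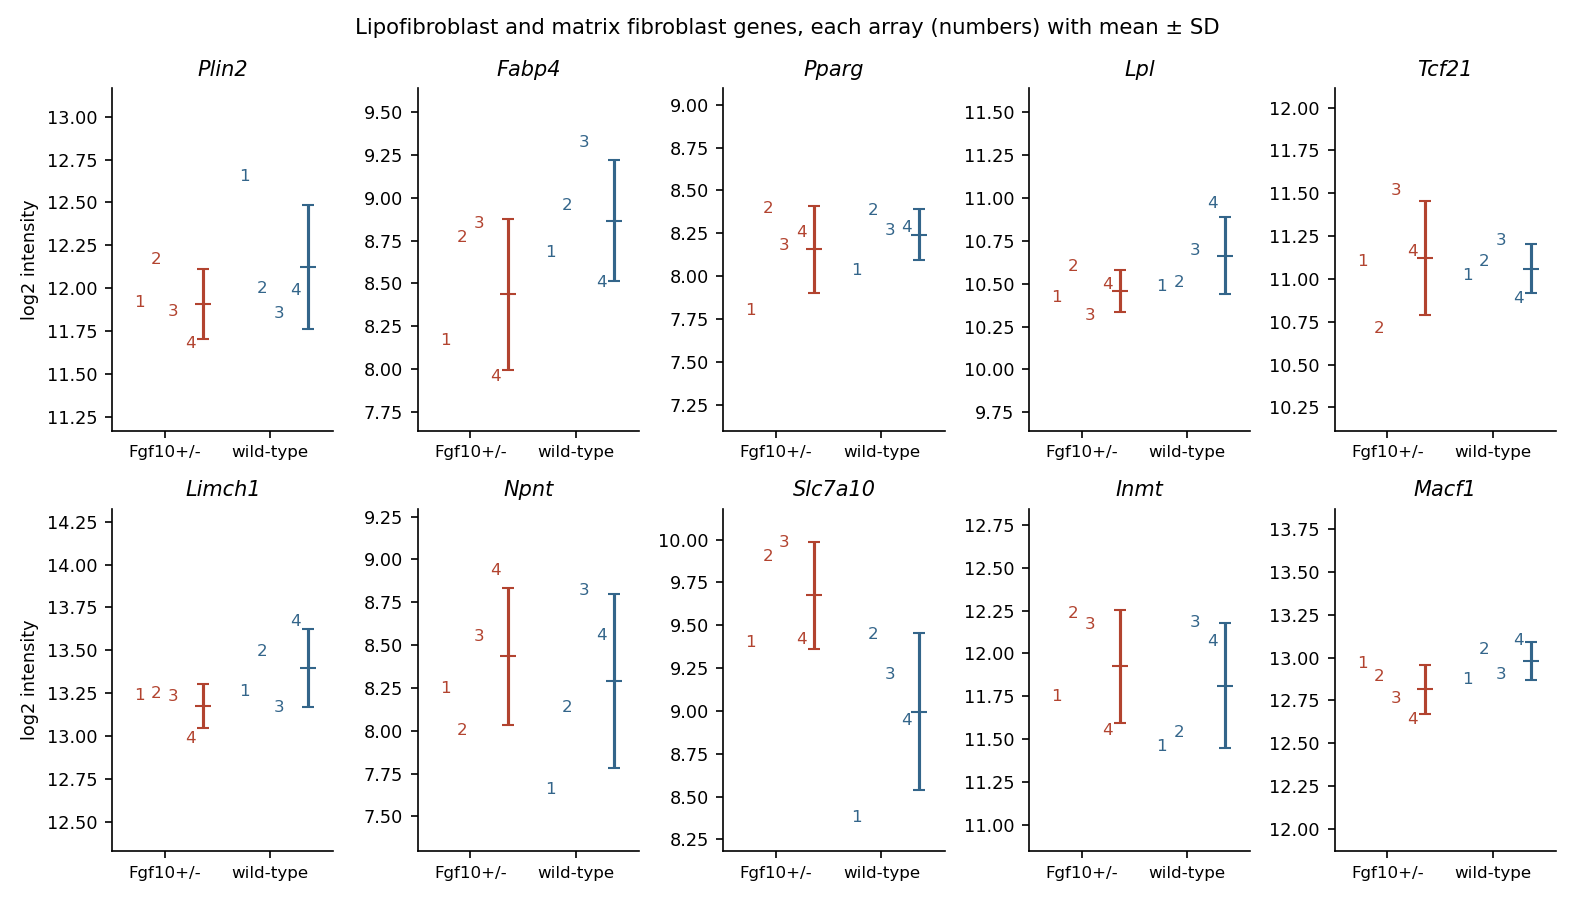
Log2 intensity of each of the 10 genes (y axis, a span of 2 log2 units in every panel) on each array, shown by its number, for arrays labelled Fgf10+/- (left, red) and wild-type arrays (right, blue). Bars are mean ± SD (n = 4), and the groups overlap in every panel, in Slc7a10 through wild-type array 2 alone.

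All 4 genes of lipid handling had a lower mean in the arrays labelled Fgf10+/-, and none passed the test. Plin2 had 11.92, 12.17, 11.86 and 11.68 in arrays 1 to 4 labelled Fgf10+/-, against 12.65, 12.00, 11.85 and 11.99 in wild-type arrays 1 to 4. Wild-type array 1 stood above the other 7 arrays, and the rest of the wild-type arrays lay within the range of the arrays labelled Fgf10+/-. The Plin2 difference was -0.22 (SE 0.15, limma adjusted p = 0.651), and it was -0.04 without wild-type array 1.

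Fabp4 had 8.17, 8.77, 8.85 and 7.96 in arrays labelled Fgf10+/-, against 8.68, 8.96, 9.32 and 8.51 in wild-type arrays. Arrays 1 and 4 labelled Fgf10+/- lay below every wild-type array, and arrays 2 and 3 lay among them. Its difference of -0.43 (SE 0.21, limma adjusted p = 0.486) was the most negative of the list. The difference ranged from -0.57 without array 3 to -0.27 without array 4 labelled Fgf10+/-.

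Lpl had 10.42, 10.60, 10.31 and 10.49 in arrays labelled Fgf10+/-, against 10.49, 10.51, 10.69 and 10.97 in wild-type arrays. The highest values came from wild-type arrays 3 and 4, while wild-type arrays 1 and 2 lay below array 2 labelled Fgf10+/-. The difference was -0.21 (SE 0.11, limma adjusted p = 0.533), and the dimmer of the 2 Lpl features gave -0.24. Without wild-type array 4 the difference of the brighter feature was -0.11.

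Pparg had 7.80, 8.40, 8.18 and 8.25 in arrays labelled Fgf10+/-, against 8.03, 8.38, 8.26 and 8.29 in wild-type arrays. Array 1 was the lowest of its group in both genotypes, and the other 6 arrays lay close together. The difference was -0.09 (SE 0.15, limma adjusted p = 0.884), and it turned to 0.03 without array 1 labelled Fgf10+/-.

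The array carries 10 features for Pparg under 1 transcript accession, and probe sequences were not used, so repeated spots cannot be told from different probes. Their differences ran from -0.19 to 0.14, with 4 positive and 6 negative. Averaged over the 10 features, Pparg was 7.93, 8.10, 7.94 and 7.95 in arrays labelled Fgf10+/-, against 8.08, 8.08, 8.03 and 7.86 in wild-type arrays. The group means of these averages came to 7.98 ± 0.08 in arrays labelled Fgf10+/-, against 8.01 ± 0.11 for wild-type (SD, n = 4 each). The two-sided exact permutation test of this difference, -0.03, gave p = 0.686. That is less than the SD of either group.

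**Figure D2:**
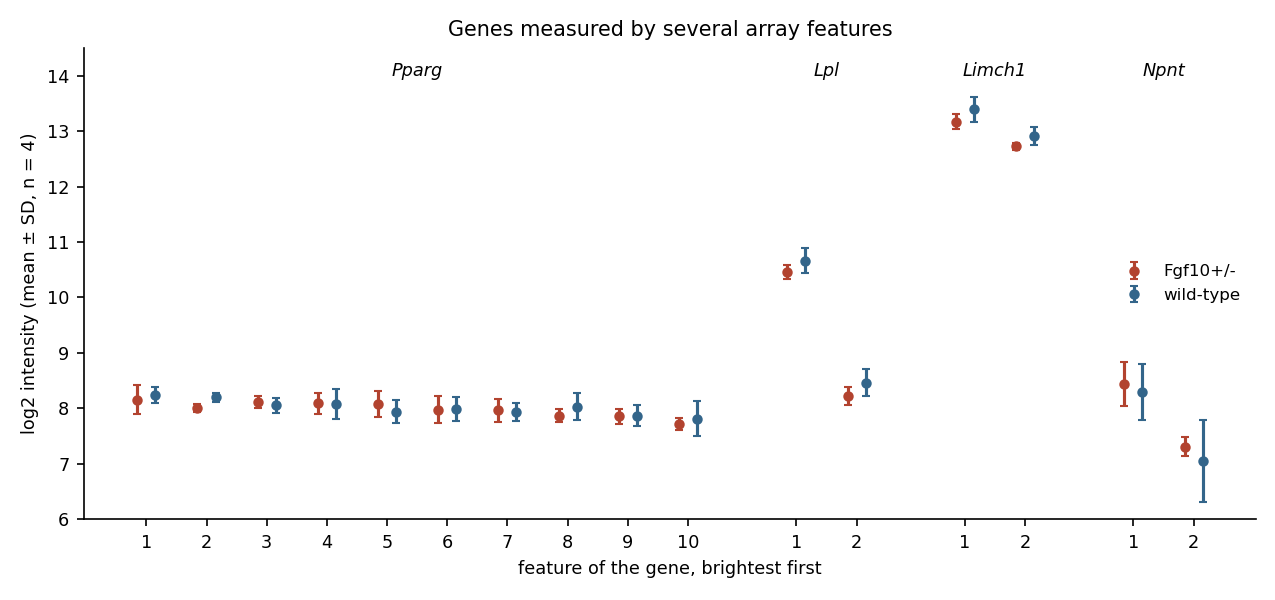
Mean log2 intensity ± SD (y axis, n = 4) of every feature of the 4 genes with more than 1 feature, brightest first along the x axis, for arrays labelled Fgf10+/- (left of each pair, red) and wild-type arrays (blue). The 10 Pparg features lie between 7.76 and 8.20 on average and show no shared direction, while both features of Lpl and of Limch1 are lower, and both of Npnt higher, in arrays labelled Fgf10+/-.

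Tcf21 had 11.10, 10.71, 11.52 and 11.16 in arrays labelled Fgf10+/-, against 11.02, 11.10, 11.23 and 10.89 in wild-type arrays. The wild-type values all lay inside the range of the arrays labelled Fgf10+/-, whose lowest and highest values were the extremes of the 8. The difference was 0.06 (SE 0.14, limma adjusted p = 0.913), and it was -0.07 without array 3 labelled Fgf10+/-.

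Among the matrix fibroblast markers Slc7a10 differed most. It encodes Asc-1, a sodium-independent transporter of small neutral amino acids such as alanine, serine and glycine. Its values were 9.40, 9.90, 9.98 and 9.42 in arrays labelled Fgf10+/-, against 8.38, 9.44, 9.21 and 8.94 in wild-type arrays. Only wild-type array 2 reached into the other group, lying just above arrays 1 and 4 labelled Fgf10+/-. The difference was 0.68 (SE 0.20, 95% confidence interval 0.24 to 1.12), the only interval of the list without 0, but the gene did not pass over all tested genes (limma adjusted p = 0.181). It ranged from 0.47 without wild-type array 1 to 0.83 without wild-type array 2, and it was 0.37 (limma adjusted p = 0.451) without array 3 labelled Fgf10+/- and wild-type array 1 together.

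Limch1 encodes a LIM and calponin homology domain protein that binds actin and activates non-muscle myosin II. Its brighter feature had 13.24, 13.25, 13.23 and 12.98 in arrays labelled Fgf10+/-, against 13.26, 13.49, 13.16 and 13.67 in wild-type arrays. Arrays 1 to 3 labelled Fgf10+/- were nearly equal and array 4 lay lower, while wild-type array 3 fell below those 3. The difference was -0.22 (SE 0.11, limma adjusted p = 0.459), and it was -0.13 without wild-type array 4.

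The dimmer Limch1 feature read 12.68, 12.77, 12.79 and 12.67 in arrays labelled Fgf10+/-, against 12.82, 12.83, 12.86 and 13.14 in wild-type arrays. Here the groups did not overlap. The gap between them was narrow, and wild-type array 4 stood above the rest. Its difference was -0.18 (SE 0.08, limma adjusted p = 0.45 in a fit of every feature on its own). Of all 22 features of the 10 genes, 2 had groups that lay apart, this one and the second brightest of Pparg, beside 6.25% of all named features past the filter.

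Macf1, a spectraplakin that links actin and microtubules, had 12.96, 12.89, 12.76 and 12.64 in arrays labelled Fgf10+/-, against 12.87, 13.05, 12.90 and 13.10 in wild-type arrays. Arrays 3 and 4 labelled Fgf10+/- were the lowest of the 8. The difference was -0.17 (SE 0.09, limma adjusted p = 0.508), and it was -0.11 without array 4 labelled Fgf10+/-.

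Inmt encodes an N-methyltransferase that acts on indole amines. Its values were 11.75, 12.23, 12.17 and 11.55 in arrays labelled Fgf10+/-, against 11.46, 11.54, 12.18 and 12.07 in wild-type arrays. Each group held 2 high and 2 low arrays, so the groups interleaved. The difference was 0.11 (SE 0.18, limma adjusted p = 0.87), and it was -0.01 without wild-type array 1.

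Npnt encodes nephronectin, an extracellular matrix ligand of integrin alpha8 beta1. It had 8.25, 8.00, 8.55 and 8.93 in arrays labelled Fgf10+/-, against 7.66, 8.14, 8.82 and 8.56 in wild-type arrays. Both groups spread over about the same range, and wild-type array 1 was the lowest on both Npnt features. The difference was 0.14 (SE 0.24, limma adjusted p = 0.882), and leaving out wild-type array 1 gave -0.07, and leaving out array 4 labelled Fgf10+/- gave -0.02. The dimmer Npnt feature had a difference of 0.26.

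**Figure D3:**
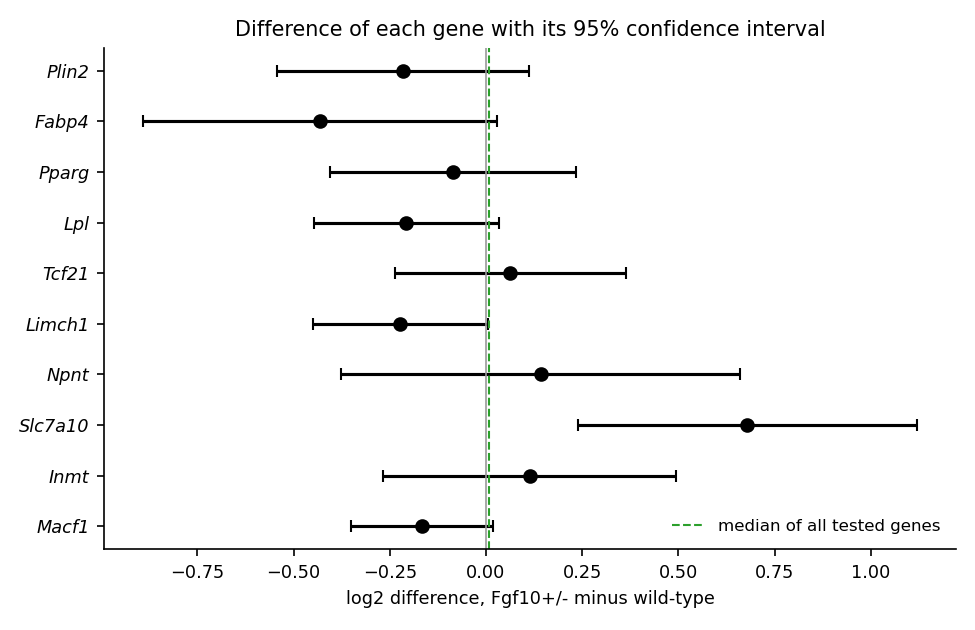
Log2 difference of each gene, labelled Fgf10+/- minus wild-type (x axis), with its 95% confidence interval from limma, and the median of all tested genes as a dashed line. The interval of Slc7a10 runs from 0.24 to 1.12 and the other 9 include 0.

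The precision of 4 arrays a group sets what could be seen. Apart from Slc7a10, the intervals lay between 0.539-fold, the lower limit of Fabp4, and 1.58-fold, the upper limit of Npnt. The narrowest ones ran from -0.35 to 0.02 for Macf1 and from -0.45 to 0.00 for Limch1. Standard deviations of the 10 genes ran from 0.12 to 0.44 in arrays labelled Fgf10+/-, against 0.11 to 0.51 in wild-type arrays, and 4 genes varied more with the Fgf10+/- label while 6 varied more in wild-type. In RNA of a whole tissue fewer cells of a type and less RNA per cell cannot be told apart.

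The 10 genes did not rank the arrays in 1 order. Array 4 labelled Fgf10+/- had the lowest value of 4 genes (Plin2, Fabp4, Limch1 and Macf1) and the highest of Npnt. Wild-type array 4 had the highest value of 3 (Lpl, Limch1 and Macf1). Wild-type array 1 had the lowest value of Npnt, Slc7a10 and Inmt and the highest of Plin2. It exceeded the mean of only 2 of the 10 genes, against 7 in wild-type array 3.

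Wild-type arrays 1 and 4 also stood apart in markers of other cells. Macrophages also make Plin2, and the mean deviation of 10 macrophage markers was -0.23, -0.06, -0.25 and -0.05 in arrays labelled Fgf10+/-, against 0.39, -0.08, -0.05 and 0.34 in wild-type arrays. None of those markers was called, 7 were negative, and their summed level ran from 12.94 to 13.16 in arrays labelled Fgf10+/-, against 12.90 to 13.26 in wild-type arrays (log2). The macrophage list was split in wild-type array 1. Marco (10.42), Ear2 (11.33) and Mrc1 (8.47) had their lowest values of the 8 arrays there, and Chil3 (11.80) and C1qb (8.36) their highest. Mesothelial markers, 6 genes of the lung's outer lining, had a mean deviation of 1.58 in wild-type array 4, against -0.84 to 0.53 elsewhere. Their summed level ran from 13.54 to 14.20 in arrays labelled Fgf10+/-, against 14.06 to 14.89 in wild-type arrays, and none was called. Lrrn4, the dimmest mesothelial marker, ran from 2.24 to 3.27 in arrays labelled Fgf10+/-, against 2.26 to 5.54 in wild-type arrays. Detection calls were not used, so whether such dim values lie above background is unknown. The part of macrophages and mesothelial cells in the values of the 10 genes was not tested.

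**Figure D4:**
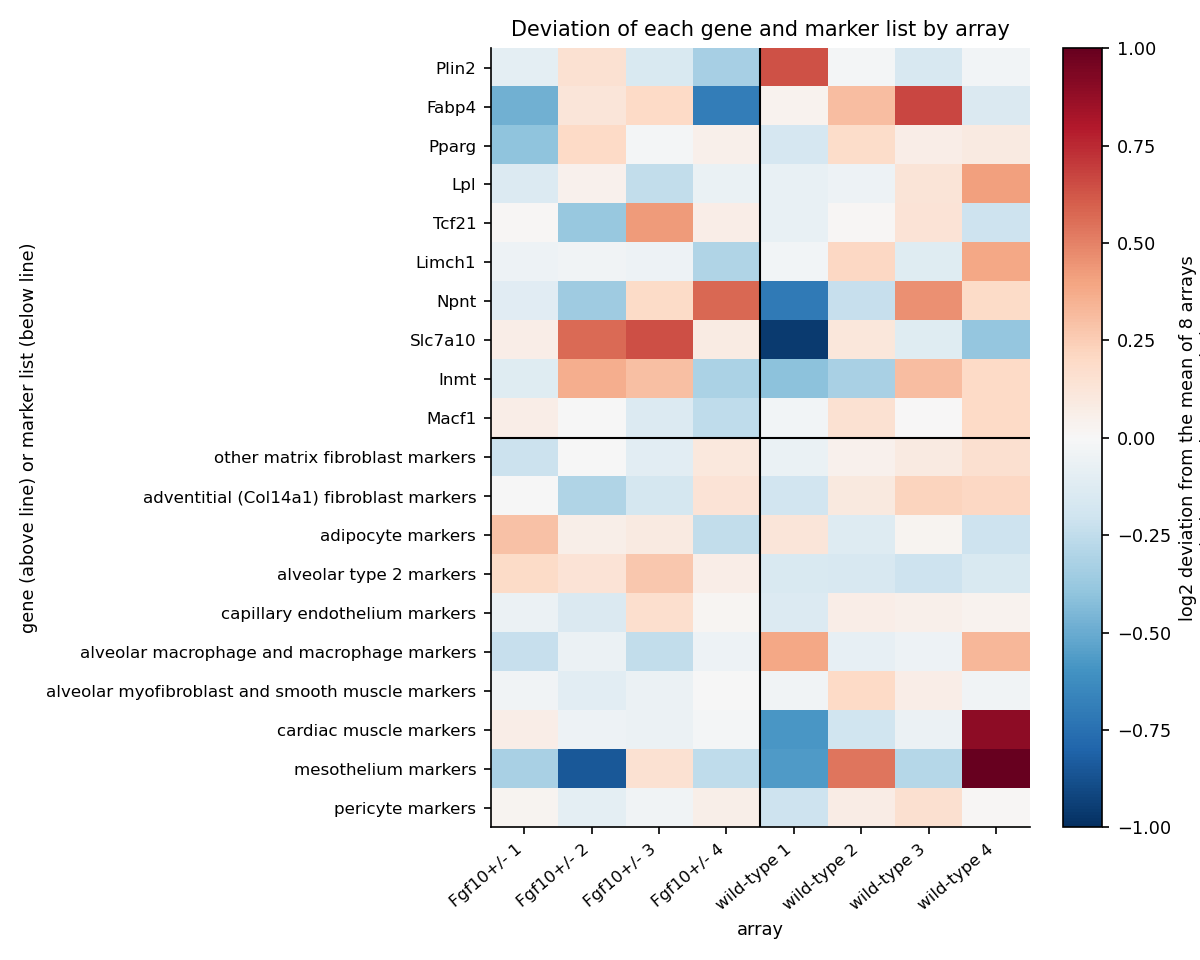
Deviation of each gene from its mean over 8 arrays (rows above the line) and mean deviation of each marker list (rows below it) on arrays 1 to 4 labelled Fgf10+/- and wild-type arrays 1 to 4 (columns), on a log2 scale whose colours end at -1 and 1. Wild-type array 1 is low in Npnt, Slc7a10 and Inmt and high in Plin2, and wild-type array 4 is high in the means of the mesothelium and cardiac muscle lists. The cardiac mean there includes Nppa at 11.25, against 4.55 to 6.25 in the other arrays.

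Relatives and partners of the 10 genes were read from lists chosen with earlier results of these data known. Among the perilipins, none of the 5 members was called, and Plin2 was the only one with a negative difference (list median 0.26). Plin3, a perilipin found on nascent droplets, had 12.25, 11.98, 12.07 and 12.09 in arrays labelled Fgf10+/-, against 11.79, 11.82, 11.86 and 11.86 in wild-type arrays. Plin5, of lipid-oxidising tissues, had 7.20, 7.56, 7.29 and 7.25 in arrays labelled Fgf10+/-, against 7.05, 6.62, 6.75 and 6.72 in wild-type arrays. Both genes had groups that did not overlap, with differences of 0.26 (SE 0.08, limma adjusted p = 0.154) and 0.54 (SE 0.17, limma adjusted p = 0.195). Groups lay apart in 6.64% of all tested genes, and genes of this and the following lists were named partly by smallest p. Plin4 had a difference of 0.26 (SE 0.25).

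Fatty acid binding proteins went either way, and none of the 8 tested was called. Fabp5, the paralogue made by type 2 cells and macrophages, had 13.30, 13.21, 13.21 and 13.16 in arrays labelled Fgf10+/-, against 13.15, 12.84, 12.69 and 12.52 in wild-type arrays. Its groups did not overlap, though wild-type array 1 lay just below the lowest array labelled Fgf10+/-. The difference was 0.42 (SE 0.11, limma adjusted p = 0.113), opposite in sign to Fabp4, and without wild-type array 1 it was 0.54 and passed (limma adjusted p = 0.00675). That was the only 1 of 8 fits with 1 array left out in which Fabp5 passed, and its difference was 0.33 without wild-type array 4. Fabp12 had 0.48 (SE 0.15) and Fabp7 -0.78 (SE 0.28), both with groups apart, though the mean of all Fabp12 features gave 0.16, and Fabp1 lay below the filter.

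**Figure D5:**
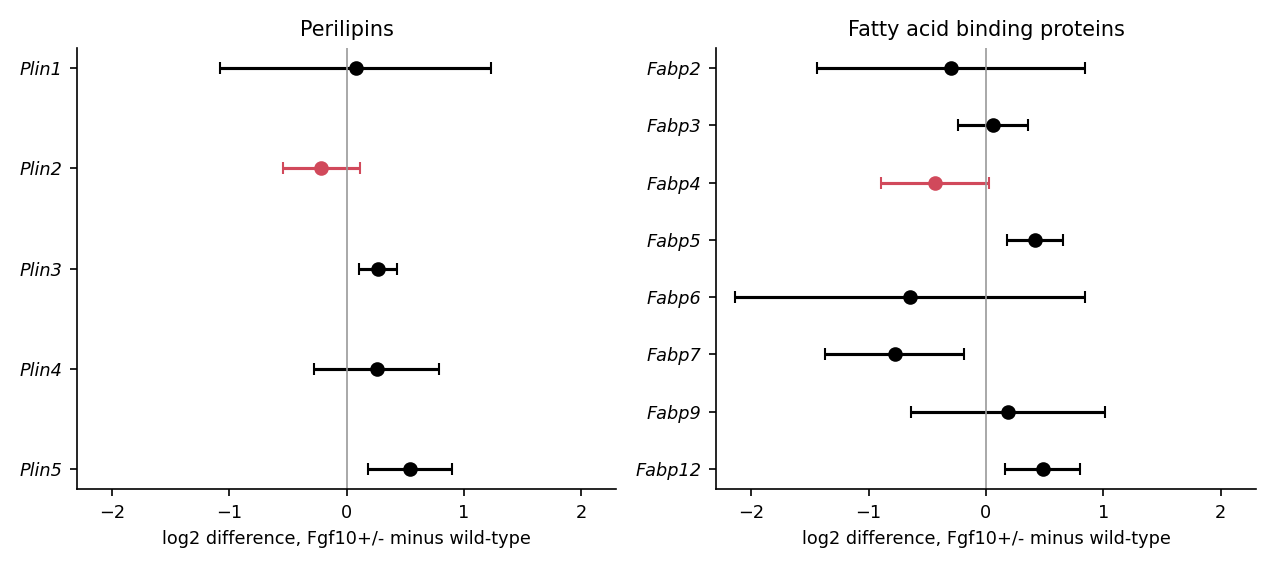
Log2 difference, labelled Fgf10+/- minus wild-type (x axis), with its 95% confidence interval from limma for the 5 perilipins and the 8 tested fatty acid binding proteins (rows). Plin2 and Fabp4, in red, have negative differences with intervals that include 0, while the intervals of Plin3, Plin5, Fabp5 and Fabp12 lie above 0 and that of Fabp7 below it.

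None of 12 tested PPAR and RXR receptors and cofactors was called (median 0.14, 9 positive and 3 negative). Cebpa, a transcription factor that acts with PPAR-gamma in adipocytes and is also present in type 2 cells, had 9.00, 8.74, 9.12 and 8.80 in arrays labelled Fgf10+/-, against 8.47, 8.10, 8.59 and 7.92 in wild-type arrays. The groups did not overlap, and the difference was 0.65 (SE 0.16, limma adjusted p = 0.0874). The coactivator Ppargc1a had 0.54 (SE 0.17), but 0.23 as the mean of all its features, and Ppard had -0.10 (SE 0.17). Rxra, the partner of PPAR-gamma on DNA, had 0.49 (SE 0.40), with 0.12 without wild-type array 1, 0.85 without wild-type array 4 and 0.046 as the mean of all its features.

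Around Lpl, none of 12 tested genes was called (median -0.12). Gpihbp1, which anchors the enzyme on capillary endothelium, had a difference of 0.07 (SE 0.12). The maturation factor relative Lmf2 had -0.28 (SE 0.11), and the LPL inhibitors Angptl4 and Angptl8 had -0.22 (SE 0.10) and 0.49 (SE 0.20). Among 17 genes of triglyceride and droplet metabolism, also with none called (median 0.05), the lipase Pnpla2 had -0.23 (SE 0.10), its inhibitor G0s2 -0.37 (SE 0.12) and its activator Abhd5 0.26 (SE 0.12). The groups of G0s2 and Abhd5 did not overlap. In the PTHrP and leptin axis, which maintains lipofibroblasts, none of 4 was called, and the receptor gene Pth1r had -0.22 (SE 0.15).

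Of 16 genes for Tcf21, its partners and other mesenchymal transcription factors none was called (median 0.06). Id2, an inhibitor of basic helix-loop-helix factors, had 0.47 (SE 0.13, limma adjusted p = 0.154), and without wild-type array 1 it was 0.57 and passed (adjusted p = 0.0465). Id2 passed in only that 1 of 8 fits with 1 array left out, and its difference was 0.34 without wild-type array 4. The hedgehog effector Gli1 had -0.34 (SE 0.11) and the dimer partner Tcf3 0.27 (SE 0.13). Near Npnt, its receptor subunit Itga8 had -0.22 (SE 0.12), and none of 8 was called (median -0.07).

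For Slc7a10, the heavy chain that pairs with it, Slc3a2, had 11.76, 11.48, 11.85 and 11.66 in arrays labelled Fgf10+/-, against 11.87, 11.73, 11.73 and 11.75 in wild-type arrays. The groups overlapped and the difference was -0.08 (SE 0.09, limma adjusted p = 0.797). No member of the 9 tested transporter subunits was called (median -0.01).

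Among 6 small molecule N-methyltransferases, none called (median 0.13), Nnmt, the nicotinamide methyltransferase, had 3.74, 3.14, 2.32 and 4.07 in arrays labelled Fgf10+/-, against 4.52, 4.92, 5.35 and 5.31 in wild-type arrays. Its groups did not overlap and its difference was -1.71 (SE 0.39, limma adjusted p = 0.0692), at intensities near the filter level of 2.76, where it is unknown whether a value lies above background. None of 10 spectraplakins and microtubule end proteins (median -0.06) and none of 9 genes around Limch1 (median -0.09) was called. The paralogue of Macf1, Dst, had 0.16 (SE 0.15), and that of Limch1, Lmo7, -0.09 (SE 0.11).

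Other fibroblast markers were set beside the 10 genes. None of 12 further matrix fibroblast markers was called (median -0.16, 5 positive and 7 negative). Cxcl14, a chemokine of matrix fibroblasts, had 8.49, 8.48, 8.33 and 8.88 in arrays labelled Fgf10+/-, against 8.95, 9.12, 9.01 and 9.53 in wild-type arrays, and its groups did not overlap (difference -0.61, SE 0.15, limma adjusted p = 0.0983).

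Of 15 markers of adventitial fibroblasts, which surround vessels and airways, 1 fell, 14 did not pass, and 9 were negative (median -0.25). Over all tested genes 0.569% were called lower. Dpep1, a membrane dipeptidase, had 9.09, 9.28, 9.43 and 8.91 in arrays labelled Fgf10+/-, against 10.03, 9.98, 10.22 and 10.35 in wild-type arrays. It fell 1.96-fold (log2 difference -0.97, SE 0.13, limma adjusted p = 0.00495) and passed in all 8 fits with 1 array left out, but not without the variance trend (adjusted p = 0.130). Whether adventitial markers differ from the 10 genes in response was not tested.

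The partner cells of lipofibroblasts did show calls. Of 10 type 2 cell markers 5 rose and 5 did not pass (median 0.35), where 0.226% of all tested genes were called higher. This list too was chosen with earlier results of these data known. Sftpc, at the top of the scale on every array, has no readable direction, and the other 9 were positive. The surfactant genes Sftpa1 (0.10, SE 0.09), Sftpb (0.14, SE 0.09) and Sftpd (0.11, SE 0.08) differed little and did not pass. The phosphate transporter Slc34a2 rose by 0.72 (SE 0.11, adjusted p = 0.0100 in limma's test). Abca3, the lipid transporter of lamellar bodies, rose by 0.48 (SE 0.08, limma adjusted p = 0.0151). The other calls were Lamp3, a lamellar body protein (0.51), the transcription factor gene Etv5 (0.41) and Lpcat1, an enzyme of surfactant lipid synthesis (0.58). With 1 array left out, Slc34a2 passed in 8 of 8 fits, Abca3 in 6, Etv5 and Lamp3 in 4 each and Lpcat1 in 2. Without the variance trend none of the 5 passed (limma adjusted p 0.173 to 0.224). The summed level of the list, which includes Sftpc at the top of the scale, ran from 17.59 to 17.73 in arrays labelled Fgf10+/-, against 17.51 to 17.57 in wild-type arrays (log2). Type 2 cells express Plin2, Lpl, Fabp5 and Cebpa too, and the part of these cells in those values was not tested. Among 11 alveolar myofibroblast and smooth muscle markers Enpp2, which encodes autotaxin, was the only call, where 0.226% of all tested genes were called higher. It rose by 0.55 (SE 0.10, adjusted p = 0.0192 in limma's test), beside a list median of -0.24. It passed in 4 of 8 fits with 1 array left out, and not without the variance trend (limma adjusted p = 0.173).

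Capillary endothelium, which also makes Fabp4, had none of 10 markers called (median -0.04). Its summed level ran from 14.84 to 15.22 in arrays labelled Fgf10+/-, against 14.83 to 15.16 in wild-type arrays (log2). Adipocytes share Fabp4, Pparg and Lpl with lipofibroblasts and also express Slc7a10. None of 7 tested adipocyte markers was called (median 0.30). Their summed level ran from 7.03 to 7.52 in arrays labelled Fgf10+/-, against 6.76 to 7.30 in wild-type arrays. The defining adipocyte gene Adipoq lay below the filter, with 2.29 to 3.39 in arrays labelled Fgf10+/-, against 2.04 to 2.75 in wild-type arrays.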

How the data were processed

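The authors deposited log2 intensities from 8 one-colour Cy3 Agilent arrays, and the submitters' processing notes name limma without a version or step. The 8 columns have the same mean (5.06), as quantile-normalized values do, so no further normalization was applied. Background correction and detection calls are not given in the sources used here. Features with a missing value (189) were left out, symbols came from the platform annotation and were updated through RefSeq accessions (2933 features), and features below the 30th percentile of mean intensity (2.76) were removed. The brightest feature stood for each gene. All 17234 genes were fitted with limma 3.58.1 in R 4.3.3 (lmFit, eBayes with a variance trend), two-sided, with Benjamini-Hochberg adjustment over all of them, and called at an adjusted p below 0.05. Intervals are 95% intervals of that fit, and the number of arrays limits the precision. The fit was tested on simulated data. A list's mean deviation averages its genes' deviations from their means over 8 arrays, and its summed level is the log2 of their summed intensities.

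The 10 genes and all lists were chosen with earlier results of these data known. Genes were named from a set of the 10 genes, Fgf10, each list's called genes or otherwise up to 4 with the smallest p, and 9 close paralogues or partners; not all of the set are printed. Outside that rule, Sftpc, Adipoq and Fabp1 are named for the checks of the tissue and the filter, with their values known. Marco, Mrc1, Chil3, Sftpa1, Sftpb, Sftpd, Nppa, Myh6, Tnnt2 and Myl4 are also outside it. They are named, with their values known, to show how members of a list differed. Same-numbered arrays did not deviate together (correlations from -0.06 to 0.07), so the numbers do not pair them. Alternatives were leaving out arrays, the replicate number as a block, no variance trend, array weights, other normalizations and filters, and other feature choices.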

Additional observations from a re-analysis of the deposited data

Results flagged for a closer look

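Limch1 was 12.98 in array 4 labelled Fgf10+/-, while the other 3 arrays of that group lay between 13.23 and 13.25. The gap is 0.943 of the group's range, which exceeds Dixon's 95% critical value for 4 samples. This was 1 of 20 groups examined, and chance flags about 1 in 20.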

How the results depend on the processing

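None of the 10 genes was called in the 8 fits with 1 array left out (0 in each), nor in the other alternatives except 1. With the replicate number as a block, 1 gene was called, Slc7a10 (limma adjusted p = 0.0384), though same-numbered arrays do not deviate together and only 1 of 4 arrays labelled Fgf10+/- correlates best with its own number. A fit of every feature on its own, chosen after seeing the data, called none of 22. The median of the 10 differences lay between -0.18 and -0.081 with 1 array left out. The number of called genes over the whole table was 137, with 34 (without wild-type array 2) to 173 (without wild-type array 1) when 1 array was left out, and 1 without the variance trend. Signs turned for several differences that had not passed, and the cause was not tested. Without array 3 labelled Fgf10+/- and wild-type array 1 together, Tcf21 was -0.082, Npnt -0.11, Inmt -0.086 and Cldn5 -0.048. With the mean of all features of a gene in place of the brightest, Ppara was -0.027 (0.21 with the brightest), Cideb -0.023 (0.40), Lepr -0.20 (0.035) and Slc7a5 -0.085 (0.40). With 1 array left out, Pparg ranged from -0.17 to 0.033, Tcf21 from -0.069 to 0.20, Npnt from -0.069 to 0.32, Inmt from -0.0051 to 0.24, Ppard from -0.21 to 0.051, Gpihbp1 from -0.026 to 0.16, Lmo7 from -0.14 to 0.0017, Pthlh from -0.49 to 0.0072, Lepr from -0.080 to 0.20 and Hnmt from -0.0032 to 0.28. Detection calls were not used, so how far dim values such as those of Nnmt lie above background is unknown.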

Other observations

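Markers of pericytes and of cardiac muscle belong to no comparison above. None of 8 pericyte markers was called (median -0.06), and their summed level ran from 13.03 to 13.10 in arrays labelled Fgf10+/-, against 12.98 to 13.30 for wild-type (log2). Of 8 cardiac muscle markers Myh7, a myosin heavy chain, rose by 0.76 (SE 0.12, limma adjusted p = 0.0100; 0.173 without the variance trend), while the list was 4 positive and 4 negative. Of all tested genes 0.226% were called higher. The cardiac list's mean deviation was -0.58 in wild-type array 1 and 0.89 in wild-type array 4. In wild-type array 4 Nppa read 11.25, against 4.55 to 6.25 in the other arrays. Myh6 (13.82) and Tnnt2 (11.60) were also highest there, while Myh7 (10.93) and Myl4 (13.17) lay within the range of the other arrays.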
